A study of Mus musculus with 10 samples.

Results

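Hepsin, its relatives among the epithelial serine proteases and the Kunitz inhibitors that restrain them are described here in 10 mouse mammary tumours. They are 9 genes of the 55335 in the count table, chosen by symbol: the proteases Hpn, St14, Tmprss13, Tmprss2, Tmprss4, Prss8 and Prss22, and the inhibitors Spint1 and Spint2. Each symbol matched 1 Ensembl identifier. The label of membrane proteases needs 1 reservation, since Prss22 encodes a secreted tryptase rather than a membrane-spanning enzyme.

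All tumours grew from Wap-Myc mammary epithelial cells (FVB background), in which the Wap promoter, active in mammary epithelium during pregnancy and lactation, drives Myc. The cells had been transduced with the doxycycline-inducible lentiviral construct pIND21-HPN at a multiplicity of infection of 10 and transplanted into fat pads of hosts aged 3 weeks. Hosts of the 5 DOX_pos tumours received doxycycline at 2 mg/ml in sugar water from day 3 after transplantation, and hosts of the 5 DOX_neg tumours received sugar water alone. Myc was induced by 2 pregnancies from 8 weeks of age, and tumours were taken at 1 cm. Every tumour carried the construct, so the drug and the induced hepsin cannot be told apart. The labels give neither the species of the construct's hepsin sequence nor the number of hosts. The p-values therefore speak of variation among these 10 tumours, which may share hosts, and a hepsin transcript of another species need not be counted on mouse Hpn.

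Hepsin and its relatives are made as inactive precursors and become active when a single peptide bond is cut, often by another protease of the same family. Matriptase, the product of St14, and prostasin, the product of Prss8, activate one another at epithelial surfaces, and hepsin cuts the precursors of hepatocyte growth factor and urokinase. The inhibitors HAI-1 (Spint1) and HAI-2 (Spint2) carry Kunitz domains that block the active sites of matriptase, hepsin and prostasin.

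The libraries held 14256948 to 39358457 counts, and DOX_pos 3 was the deepest. Values are CPM, the counts scaled to a common library size after TMM scaling, an edgeR factor that corrects for composition, unless a length is named. Mammary epithelial transcripts were abundant in every tumour: Csn3, a milk casein, lay between 846 and 1908 CPM, the keratin gene Krt8 between 280 and 479 CPM, and Epcam, an epithelial adhesion molecule, between 241 and 325 CPM. The other milk genes were far lower than Csn3. Wap itself lay between 2.50 and 54.8 CPM and Lalba between 4.70 and 43.9 CPM. The caseins Csn1s1 and Csn2 lay between 1.00 and 17.5 CPM and between 0 and 16.1 CPM. Whole tumours were read, so fewer cells of a type and less RNA per cell cannot be told apart. The summed level of 5 fibroblast markers was 1138 to 2194 CPM in DOX_neg and 458 to 1005 CPM in DOX_pos tumours, with no overlap and no marker at 0. Most of that sum was Col1a1, at means of 1574 and 708 CPM, and the other 4 fibroblast markers overlapped between groups, with Pdgfrb at a log2 fold change of -0.07. Log2 fold changes were above 0 in 6 of 6 basal and 6 of 7 epithelial markers (50.5% of all genes), and below 0 in 5 of 5 fibroblast, 4 of 4 endothelial and 4 of 4 tested milk genes. Csn3, the most abundant milk gene, was at -0.03. At an unadjusted edgeR p under 0.05 there were 1 basal and 2 epithelial genes on the higher side (8.20% of all genes), and 2 fibroblast, 2 endothelial and 1 milk gene on the lower side (7.83%). That milk gene was Wap, at 54.8 CPM in DOX_neg 4 and 4.99 to 10.3 CPM in the other controls. The basal sums of 52.3 to 271 against 78.6 to 539 CPM and the epithelial sums of 1172 to 1641 against 1189 to 1848 CPM overlapped. The part of these shifts in the results that follow was not tested directly. An alternative fit held the epithelial marker level as a covariate, and its values are given where named.

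Hpn lies on chromosome 7 at 31098725 to 31115290 (GRCm38, minus strand) and overlaps no other annotated gene. The regions ahead of Hpn, Spint1 and Spint2 are shown because, as deviations from the group means, log2 CPM of Spint1 and Spint2 had r = 0.82 over the 10 tumours, and Hpn had r = 0.04 and 0.09 with them. Tmprss2, whose window is counted below, also had r = 0.82 with Spint2 by this measure, and 0.52 with Spint1. None of these pairs passed adjustment over all tumours. Each run is the 250 bases before a start listed by RefSeq (GRCm38.p6), 5′ to 3′ on the gene's strand, and capitals mark the GC box GGGCGG on either strand. For Hpn it is the outer of the listed starts, chr7:31115327-31115576, minus strand. For Spint1 it is chr2:119237110-119237359, plus strand, and for Spint2 chr7:29281978-29282227, minus strand.
Hpn: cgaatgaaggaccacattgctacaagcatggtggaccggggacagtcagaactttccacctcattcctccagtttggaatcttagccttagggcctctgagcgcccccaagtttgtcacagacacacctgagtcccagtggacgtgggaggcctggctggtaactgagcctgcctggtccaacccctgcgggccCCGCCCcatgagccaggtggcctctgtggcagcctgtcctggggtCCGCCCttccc
Spint1: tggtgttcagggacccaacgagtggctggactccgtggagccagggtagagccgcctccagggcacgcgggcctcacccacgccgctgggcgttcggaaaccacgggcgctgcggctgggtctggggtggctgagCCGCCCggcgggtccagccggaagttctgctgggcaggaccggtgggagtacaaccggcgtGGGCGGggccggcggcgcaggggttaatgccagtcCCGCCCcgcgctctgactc
Spint2: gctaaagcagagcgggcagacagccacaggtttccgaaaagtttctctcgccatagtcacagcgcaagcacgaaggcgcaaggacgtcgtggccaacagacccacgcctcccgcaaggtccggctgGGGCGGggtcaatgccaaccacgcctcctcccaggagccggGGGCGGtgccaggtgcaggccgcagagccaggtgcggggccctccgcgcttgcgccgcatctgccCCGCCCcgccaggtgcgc
The Hpn window held 2 GC boxes and 7 CpG dinucleotides, and the Spint1 and Spint2 windows held 3 GC boxes each with 26 and 24 CpG dinucleotides. The window of the inner Hpn start held 0 GC boxes and 1 CpG dinucleotide, and that of Tmprss2 held 0 GC boxes and 10 CpG dinucleotides. Over all 32851 windows of that length in the table the median was 6 CpG dinucleotides, and 32.7% held a GC box. The E-box CACGTG, the motif that Myc with Max is known to bind, was in none of the 3 windows and in 6.02% of all windows. Of the 9 genes, 4 had an entry in the sequence table, and the fourth was Tmprss2.

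Hpn transcript was present in every tumour. It stood at 25.7, 25.04, 23.0, 14.2 and 20.4 CPM in DOX_neg 1 to 5, and at 26.4, 46.0, 25.1, 32.8 and 28.2 CPM in DOX_pos 1 to 5. DOX_neg 4 was the lowest tumour and DOX_pos 2 the highest, and the groups met only where DOX_pos 3 lay below DOX_neg 1 and next to DOX_neg 2. The group means were 21.7 ± 4.68 and 31.7 ± 8.53 CPM (SD, n = 5 each), on 245 to 1012 counts. The mean of log2(CPM + 1) was 0.52 higher in DOX_pos tumours (two-sided exact permutation p = 0.0159, where 5 against 5 allow 0.00794), and edgeR's quasi-likelihood test gave a log2 fold change of 0.55 (SE 0.20) with an adjusted p of 0.247 over all genes. Without both DOX_neg 4 and DOX_pos 5 the difference was 0.42 (exact permutation p = 0.0571), which ends the permutation call. Limma voom with sample weights gave a log2 fold change of 0.32. Those weights were 4.65 for DOX_pos 3, the deepest library, and 0.465 to 1.89 for the other tumours.

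Where Hpn was highest, in DOX_pos 2, the summed fibroblast markers were at their lowest (458 CPM), and in DOX_neg 4, where Hpn was lowest, they were the lowest of the control tumours (1138 CPM). Hepatocytes are the richest known source of hepsin, and the 4 hepatocyte markers summed to 0.0601 to 0.199 CPM in DOX_neg and 0.0496 to 0.162 CPM in DOX_pos tumours, with Ttr at 0 counts in all 10.

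**Figure D1:**
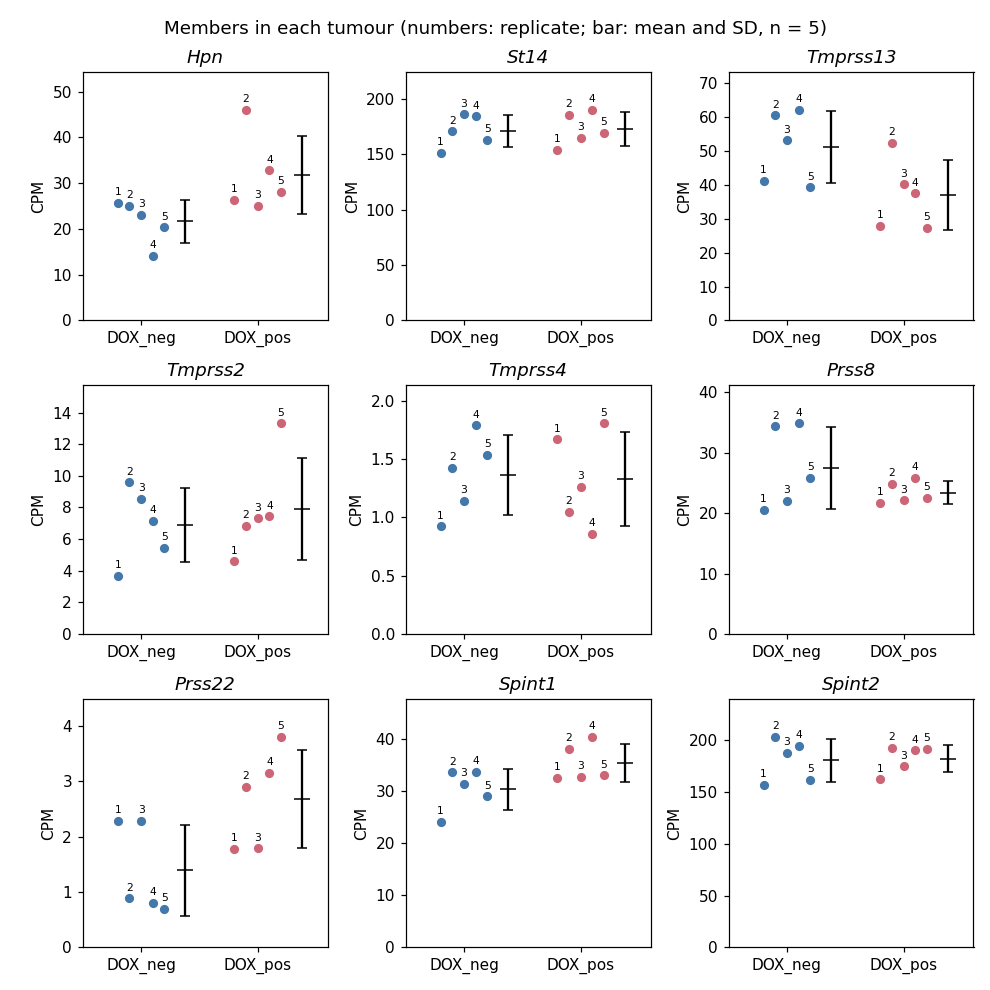
CPM of each of the 9 genes (vertical axes, from 0) in the 5 DOX_neg and 5 DOX_pos tumours (points, numbered by replicate), with mean and SD as bars. Hpn in DOX_pos 2 stands at 46.0 CPM, St14 and Spint2 hardly differ between groups, and Prss22 stays under 4 CPM.

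Across all 9 genes, 0 passed edgeR's test at an adjusted p under 0.05, against 0.00% of the 16167 genes tested, and DESeq2 and limma voom on the same counts also called 0 of the 9, against 1.99% and 4.79% of all genes. All 9 passed the filter on low counts. At an unadjusted p under 0.05 there were 3, against a background of 16.0% of all genes: Hpn and Prss22 higher (background 8.20%) and Tmprss13 lower (background 7.83%). With so few genes, that count does not set them apart from the rest of the transcriptome. Over 20 alternative fits of the same tumours, the unadjusted p was under 0.05 in 19 for Hpn. It was so in 11 for Prss22 and in 11 for Tmprss13. In none of the 9 did the groups separate fully, where 2.94% of all genes did. 6 of the 9 log2 fold changes were above 0, against 50.5% of all genes, and their median was 0.01, against 0.00 over all genes.

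**Figure D2:**
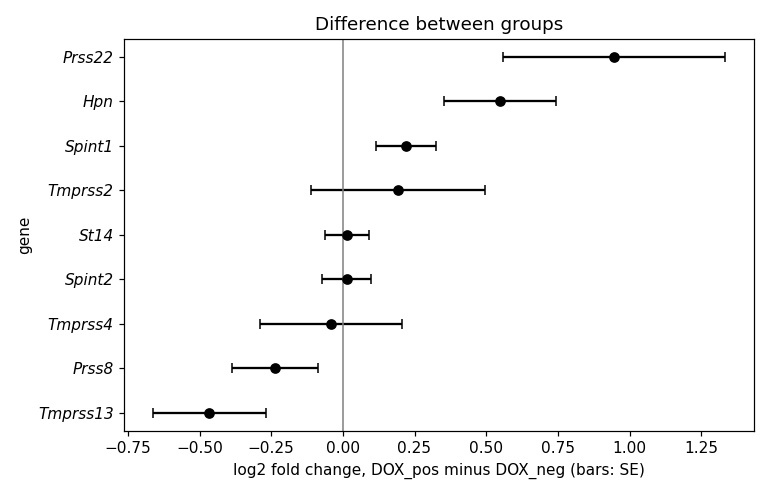
Log2 fold change of DOX_pos over DOX_neg (horizontal axis) for the 9 genes (vertical axis), with the standard error as bars, from edgeR. Prss22 lies at 0.95 and Tmprss13 at -0.47, while St14 and Spint2 lie at 0.01.

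Matriptase and its partner were the steadiest proteases. St14 (chromosome 9, 31089402 to 31131853, minus strand) stood at 151, 171, 186, 184 and 163 CPM in DOX_neg 1 to 5. In DOX_pos 1 to 5 it stood at 154, 186, 164, 190 and 169 CPM. The highest tumour was 1.26 times the lowest, the narrowest span of the 9 genes, and the groups lay over one another. The log2 fold change was 0.01 (SE 0.08, edgeR adjusted p = 0.945), and the spread within groups was 0.13 on the log2 scale (percentile 23.7 of tested genes).

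Prss8 (chromosome 7, 127925716 to 127930104, minus strand), encoding the lipid-anchored protease prostasin, was at 20.5, 34.3, 22.1, 34.9 and 25.8 CPM in DOX_neg 1 to 5. It was at 21.7, 24.9, 22.1, 25.9 and 22.5 CPM in DOX_pos 1 to 5. DOX_neg 2 and DOX_neg 4 stood well above the other tumours, and the DOX_pos tumours fell inside the range of the controls. The log2 fold change was -0.24 (SE 0.15, edgeR adjusted p = 0.444), and it was -0.14 without either DOX_neg 2 or DOX_neg 4. Its exons share 122 bp with Kat8 on the opposite strand, and 2.53% of its stretches of 75 bases, the read length, also occur in a Kat8 transcript, so a small part of its reads is uncertain if strand was not used in counting.

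Tmprss13 encodes a type II transmembrane protease of stratified epithelia. Its values in DOX_neg 1 to 5 were 41.1, 60.6, 53.1, 62.2 and 39.3 CPM. In DOX_pos 1 to 5 they were 28.0, 52.5, 40.1, 37.5 and 27.3 CPM, so that 3 of 5 lay below every control and DOX_pos 2 stood with the higher controls. The means were 51.2 ± 10.7 and 37.1 ± 10.3 CPM (SD, n = 5 each), a log2 fold change of -0.47 (SE 0.20, edgeR adjusted p = 0.288). It was -0.30 with limma voom, and -0.30 without both DOX_neg 4 and DOX_pos 5. The gene lies on chromosome 9 (45319100 to 45347581, plus strand). Basal markers tended to run opposite to Tmprss13. Their sum was greatest in DOX_pos 5 and DOX_pos 1 (539 and 311 CPM), the tumours lowest in Tmprss13. It was least in DOX_neg 4 and DOX_neg 2 (52.3 and 68.3 CPM), the tumours highest in Tmprss13. DOX_pos 4 went against this, with a basal sum of 78.6 CPM and Tmprss13 at 37.5 CPM, and so did DOX_neg 3, with 271 and 53.1 CPM. The part of the basal markers in the difference was not tested.

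Tmprss2, known for activating viral spike proteins and for its androgen response in prostate, was low and scattered. It read 3.69, 9.59, 8.53, 7.17 and 5.46 CPM in DOX_neg 1 to 5. The DOX_pos tumours 1 to 5 read 4.58, 6.84, 7.31, 7.43 and 13.3 CPM, and the groups overlapped apart from the single high tumour DOX_pos 5. The log2 fold change was 0.19 (SE 0.30, edgeR adjusted p = 0.775), and without DOX_pos 5 it was -0.075. Tmprss2 lies on chromosome 16 (97564682 to 97611195, minus strand).

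Tmprss4, a family member raised in several human carcinomas, had the lowest mean of the 9, on 12 to 51 counts, although Prss22 was lower in DOX_neg 2, 4 and 5. Its level was 0.923, 1.43, 1.14, 1.79 and 1.54 CPM in DOX_neg 1 to 5. In DOX_pos 1 to 5 it was 1.67, 1.05, 1.26, 0.857 and 1.81 CPM, with full overlap (log2 fold change -0.04, SE 0.25, edgeR adjusted p = 0.952). The lowest value, in DOX_pos 4, has an exact 95% Poisson interval of 0.443 to 1.498 CPM, which covers counting error only and reaches most of the other tumours. Of its stretches of 75 bases, 10.5% occur in the opposite-strand gene Gm17099, which had 0 counts. Tmprss4 lies on chromosome 9 (45172726 to 45204092, minus strand).

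Prss22 had the greatest log2 difference of the 9, at very low level. Its product, tryptase epsilon, can activate the precursor of urokinase. In DOX_neg 1 to 5 it read 2.28, 0.886, 2.28, 0.810 and 0.695 CPM, in which DOX_neg 1 and 3 stand apart from the other controls. The DOX_pos tumours 1 to 5 read 1.78, 2.90, 1.78, 3.14 and 3.799 CPM, and 3 of 5 exceeded every control. The fitted log2 fold change was 0.95 (SE 0.39), or 1.93-fold, with an edgeR adjusted p of 0.277 on 14 to 72 counts. The exact 95% Poisson interval of DOX_neg 4 ran from 0.443 to 1.36 CPM and that of DOX_pos 5 from 2.92 to 4.86 CPM, for counting error only. Mast cells are a source of other tryptases, and their 5 markers summed to at most 0.185 CPM in DOX_neg and 0.904 CPM in DOX_pos tumours. In DOX_pos 2, where Prss22 read 2.90 CPM, all 5 were at 0, and in DOX_pos 5, where Prss22 was highest, their sum was highest too. The part of mast cells was not tested. The gene lies on chromosome 17 (23993534 to 23998100, minus strand).

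The inhibitor genes differed in level. Spint1 (chromosome 2, 119237362 to 119249527, plus strand) was at 24.1, 33.6, 31.3, 33.6 and 28.9 CPM in DOX_neg 1 to 5. For DOX_pos 1 to 5 the values were 32.5, 38.1, 32.7, 40.4 and 33.0 CPM, so that DOX_pos 2 and 4 exceeded every control and the other 3 lay just under the top controls. The means of 30.3 ± 3.97 and 35.3 ± 3.65 CPM (SD, n = 5 each) differed by a log2 fold change of 0.22 (SE 0.10). The edgeR adjusted p was 0.326.

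Spint2 (chromosome 7, 29256323 to 29281912, minus strand) was at 157, 203, 187, 194 and 161 CPM in DOX_neg 1 to 5. It was at 162, 193, 174, 190 and 191 CPM in DOX_pos 1 to 5, every one inside the range of the controls. The log2 fold change was 0.01 (SE 0.08, edgeR adjusted p = 0.955), and the spread within groups was 0.14 on the log2 scale (percentile 29.8 of tested genes).

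To compare genes with one another, CPM were divided by the length in kb of the longest annotated protein-coding transcript, a choice made after the counts were seen. Spint2 was highest in every tumour, at 113 to 147 CPM per kb, followed by St14 at 46.4 to 58.3 CPM per kb, with no overlap. Hpn (7.74 to 25.2), Spint1 (10.4 to 17.4), Prss8 (11.1 to 18.8) and Tmprss13 (8.40 to 19.2 CPM per kb) formed a middle group whose ranges overlapped. Within it Hpn exceeded Spint1 in 5 of 10 tumours. Tmprss2 (1.17 to 4.22), Prss22 (0.525 to 2.87) and Tmprss4 (0.375 to 0.792 CPM per kb) were the lowest, and every one of them was below the middle group in all tumours. With the summed length of all annotated exons in place of the transcript, which counts retained introns as length, Spint2 and St14 kept the first and second place in 10 of 10 tumours, but Hpn was below Spint1 in all 10 and Prss22 above Tmprss2 in 7 of 10.

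**Figure D3:**
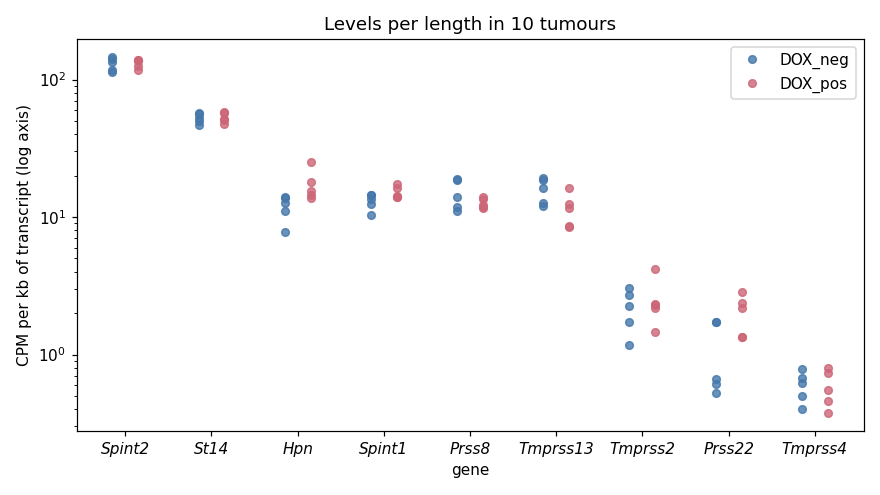
Level per length (CPM per kb of the longest protein-coding transcript, log axis) of the 9 genes in order of their mean, with 1 point per tumour in each group. Spint2 and St14 lie above the other genes in every tumour, and the 4 genes from Hpn to Tmprss13 overlap.

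Ratios within a tumour do not depend on its library size and show the balance between protease and inhibitor transcripts, given here as a description and per length. Hpn relative to Spint1 was 1.36, 0.947, 0.933, 0.535 and 0.893 in DOX_neg 1 to 5 and 1.03, 1.54, 0.972, 1.03 and 1.08 in DOX_pos 1 to 5. Only DOX_pos 2 exceeded every control, and DOX_neg 1, the tumour with the lowest Spint1, was the highest control. Hpn relative to St14 was 0.137 to 0.303 in DOX_neg and 0.272 to 0.442 in DOX_pos tumours, with 3 of 5 above every control.

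St14 relative to Spint1 was 4.48, 3.62, 4.23, 3.91 and 4.02 in DOX_neg 1 to 5. In DOX_pos 1 to 5 it was 3.38, 3.48, 3.58, 3.36 and 3.66, a narrow band mostly under the control range. Only DOX_pos 5 lay above the lowest control. The means were 4.05 ± 0.325 and 3.49 ± 0.130 (SD, n = 5 each), and with the summed exon length they were 2.06 ± 0.165 and 1.77 ± 0.0663, so the level of the ratio depends on the length used. By that length Hpn relative to Spint1 averaged 0.496 ± 0.155 and 0.601 ± 0.122. St14 relative to Spint2 overlapped fully, at 0.357 to 0.429 and 0.376 to 0.425, and Spint2 relative to Spint1 was 9.36 to 10.9 in DOX_neg and 7.90 to 9.74 in DOX_pos tumours.

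**Figure D4:**
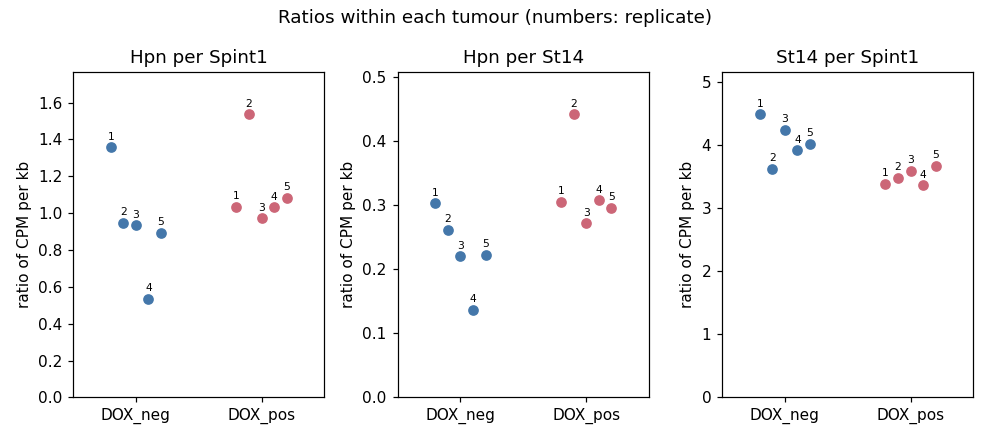
Ratio of CPM per kb (vertical axes, from 0) of Hpn to Spint1, Hpn to St14 and St14 to Spint1 in each tumour, numbered by replicate. St14 per Spint1 lies between 3.36 and 3.66 in DOX_pos and between 3.62 and 4.48 in DOX_neg tumours.

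The 9 genes did not vary as one block. Pairs of other genes were not counted, so the counts that follow have no background share and do not set these genes apart. Of 36 pairs, 27 had a positive Pearson correlation of log2 CPM over the 10 tumours, 7 had an unadjusted permutation p under 0.05, and 0 passed adjustment over the 36 pairs. The strongest was Tmprss2 with Spint2 (r = 0.82, permutation p = 0.00233, adjusted p = 0.0839; Spearman's rho = 0.65, permutation p = 0.0496, adjusted p = 0.255). Without the tumours farthest from the median of Tmprss2, DOX_pos 5 and DOX_neg 1, that r was 0.85. St14 had r = 0.74 with Spint1 (permutation p = 0.00909, adjusted p = 0.105; rho = 0.72, permutation p = 0.0234, adjusted p = 0.211), and 0.45 without the 2 tumours farthest from the median of St14. St14 had r = 0.79 with Spint2 (permutation p = 0.00955, adjusted p = 0.105; rho = 0.65, permutation p = 0.0485, adjusted p = 0.255), and 0.72 without those tumours.

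Spint1 with Spint2 had r = 0.71 (permutation p = 0.0146, adjusted p = 0.105; rho = 0.79, permutation p = 0.00863, adjusted p = 0.187), and 0.60 without the 2 farthest tumours. Taken as deviations from the group means, r for St14 with Spint1, St14 with Spint2 and Spint1 with Spint2 was 0.87, 0.79 and 0.82. The highest r of Hpn was with Prss22 (r = 0.71, permutation p = 0.0139, adjusted p = 0.105; rho = 0.78, permutation p = 0.0104, adjusted p = 0.187). That r was 0.73 without the 2 farthest tumours and 0.50 as deviations from the group means. Hpn with Spint1 had r = 0.41 (permutation p = 0.235, adjusted p = 0.497; rho = 0.41, permutation p = 0.247, adjusted p = 0.527), then 0.58 without the 2 farthest tumours and 0.04 as deviations from the group means. All values of a tumour share its library and scaling.

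**Figure D5:**
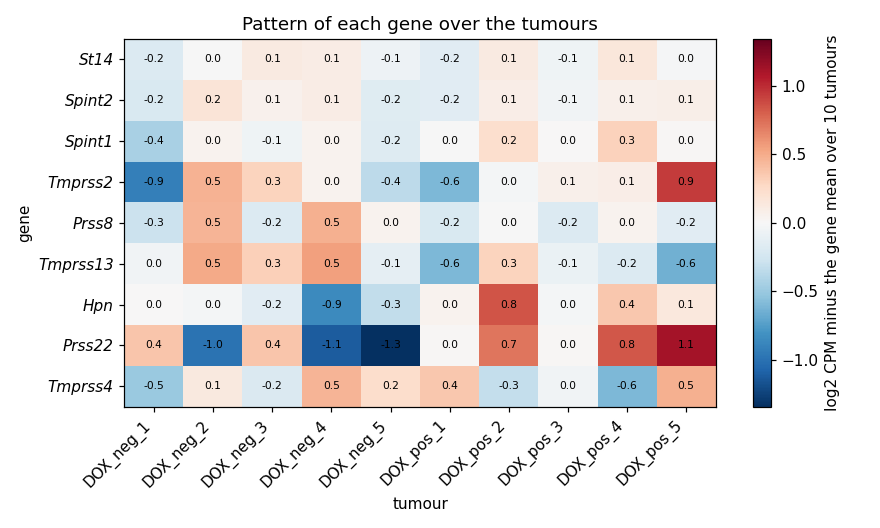
Log2 CPM of the 9 genes (rows) minus each gene's mean over the 10 tumours (columns), in red where higher and blue where lower. St14 and Spint2 have the palest rows, Spint1 is lowest in DOX_neg 1, and Hpn is lowest in DOX_neg 4 and highest in DOX_pos 2.

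The genes most like Hpn over the 10 tumours were found among 10415 protein-coding genes with a mean of at least 5 CPM, by the root mean square difference of centred log2 CPM. Palm, encoding the membrane-associated phosphoprotein paralemmin, was nearest at 0.12, followed by Tead2, a DNA-binding partner of YAP (0.17), the receptor gene Gpr161 (0.18), the lipid flippase gene Atp8b2 (0.18) and the anion exchanger gene Slc4a3 (0.19). The median over all ranked genes was 0.45, and St14, Spint1 and Spint2 were at 0.42, 0.38 and 0.42. The other members were farther from Hpn than that median: Tmprss13 at 0.64, Tmprss2 at 0.63, Tmprss4 at 0.67, Prss8 at 0.57 and Prss22 at 0.56. Tmprss4 and Prss22 were under the limit of 5 CPM and so were not ranked themselves. The distance also grows with a gene's own spread, so steady genes come out near. Pearson's r with Hpn over the 10 tumours was 0.13 for St14, 0.12 for Spint2 and 0.71 for Prss22. Palm had the same extremes as Hpn, 12.7 CPM in DOX_neg 4 and 41.3 CPM in DOX_pos 2. Since these genes were picked for their likeness, their own group differences are no separate evidence: Tead2 was at 28.1 ± 4.83 and 45.8 ± 8.03 CPM (SD, n = 5 each; edgeR adjusted p = 0.196), and Palm at 20.9 ± 5.73 and 27.7 ± 7.66 CPM (edgeR adjusted p = 0.380).

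The wider protease network held 46 genes, of which 26 did not pass the filter on low counts. None of those 26 exceeded 1.30 CPM or 26 counts in any tumour, and 8 had no count at all, among them Plg, the plasminogen gene, and Tmprss15, the enteropeptidase gene. Of 15 other type II transmembrane proteases 1 was tested, Tmprss11e, at 0.566 ± 0.269 and 1.06 ± 1.07 CPM (SD, n = 5 each; edgeR adjusted p = 0.455). Of 5 other membrane-tethered or tryptase-like proteases 1 was tested, Prss41, at 0.990 ± 0.264 and 0.896 ± 0.190 CPM (edgeR adjusted p = 0.788). Among these proteases and the 7 described above, Hpn, St14, Tmprss13 and Prss8 alone had a mean above 20 CPM in both groups.

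Of 10 other Kunitz and serpin inhibitors 6 were tested, 5 higher and 1 lower with doxycycline, where 50.5% of all genes were higher. Their median log2 fold change was 0.19. In edgeR's test 0 passed at an adjusted p under 0.05 (0.00% of all genes) and 0 at an unadjusted p under 0.05 (16.0%). Serpine2, by the smallest p of the list, encodes the serpin protease nexin-1 and was at 208, 128, 176, 78.6 and 180 CPM in DOX_neg 1 to 5 and at 281, 179, 216, 227 and 184 CPM in DOX_pos 1 to 5. Its DOX_pos tumours overlapped the upper controls (log2 fold change 0.50, SE 0.23, edgeR adjusted p = 0.320), and the log2 fold change was 0.32 without DOX_neg 4. App and Aplp2, membrane proteins with a Kunitz domain in some isoforms, differed between groups by log2 fold changes of 0.23 (SE 0.13; edgeR adjusted p = 0.397) and 0.29 (SE 0.15; edgeR adjusted p = 0.353). The log2 fold change of App was 0.12 without DOX_neg 4, and with the epithelial marker level as a covariate App was at 0.095 and Aplp2 at 0.12. Serpinc1, the antithrombin gene, was near 1 CPM in both groups (edgeR adjusted p = 0.767).

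Of 16 genes for substrates of these proteases and their receptors 12 were tested. Of these 7 were higher and 5 lower with doxycycline, where 50.5% of all genes were higher. Their median log2 fold change was 0.09, and 0 passed edgeR's adjusted test (0.00% of all genes). At an unadjusted edgeR p under 0.05 there was 1 higher (8.20% of all genes) and 1 lower (7.83%). The one that was higher was F2rl1, encoding the receptor PAR2 that matriptase can activate. It read 11.5, 7.87, 16.1, 6.25 and 11.3 CPM in DOX_neg 1 to 5 and 28.5, 9.29, 20.7, 26.9 and 15.1 CPM in DOX_pos 1 to 5, with 3 of 5 above every control (log2 fold change 0.92, SE 0.32, edgeR adjusted p = 0.243). DOX_pos 2, the tumour highest in Hpn, was the lowest of its group in F2rl1. With limma voom and sample weights F2rl1 had an adjusted p of 0.0490, in a fit that called 4.79% of all genes. That fit gave DOX_pos 3 the greatest weight, 4.65. With the epithelial marker level as a covariate its log2 fold change was 0.56 (edgeR adjusted p = 0.768).

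The one that was lower was Met, the receptor for hepatocyte growth factor, with 2 of 5 DOX_pos tumours below every control (log2 fold change -0.38, SE 0.16, edgeR adjusted p = 0.287). With limma voom it was at -0.23. Epcam, a matriptase substrate, was at 262 ± 14.1 and 289 ± 32.2 CPM (edgeR adjusted p = 0.401).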

How the data were processed

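Whole-tumour RNA was depleted of ribosomal RNA, made into directional libraries and read single-end to 75 bp, per the labels' protocols. The authors deposited whole-number read counts per Ensembl gene, not normalised. Per the submitters' processing notes the build was GRCm38 and the tools included STAR 2.6.0c and featureCounts, with Trimmomatic, bcl2fastq and DESeq2 also listed. The sources used here do not state the annotation release or strand setting. Of 55335 identifiers 55154 had a symbol. Coordinates and lengths came from GENCODE M21, which held 54587 of the identifiers in the same version.

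The members, gene lists and tests were chosen with earlier results of these data known. Groups were fitted with edgeR 4.0.16 in R 4.3.3 (TMM, filterByExpr with minimum count 10 and total 15, quasi-likelihood test, no block, Benjamini-Hochberg adjustment over 16167 genes, threshold 0.05). Standard errors are the log2 fold change divided by the square root of F. DESeq2 1.42.0 and limma 3.58.1 were alternatives. The fit was tested on simulated counts. Within groups, libraries differed beyond sampling noise in all 20 pairs (chi-square per degree of freedom 6.76 to 41.9). Total counts of 14256948 to 39358457 set the precision; intervals cover counting error only. Correlations used 100000 permutations, over log2 CPM with a prior count of 2. Named genes were the 9 members, up to 4 tested genes of each network list with the smallest p, the 5 genes most like Hpn, markers and Myc. A gene that this rule names among the substrates is not reported here. Protein sequences were not used here.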

Additional observations from a re-analysis of the deposited data

Results flagged for a closer look

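In 58 sets of 5 tumours (29 genes in each group), 4 held a tumour far from the other 4, where chance gives about 1 in 20. Tmprss11e stood at 2.95 CPM in DOX_pos 5 against 0.485 to 0.867 CPM in the rest of its group. Palm stood at 41.3 CPM in DOX_pos 2 against 23.1 to 24.8 CPM. Wap stood at 54.8 CPM in DOX_neg 4 against 4.99 to 10.3 CPM, and Myc at 607 CPM in the same tumour against 359 to 424 CPM. None of the 9 protease and inhibitor genes was among them.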

How the results depend on the processing

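Over 20 alternatives none of the 9 genes passed at an adjusted p under 0.05, and of 180 log2 fold changes 17 turned direction, all in St14, Spint2, Tmprss2 and Tmprss4. With the epithelial marker level as a covariate Tmprss2 was at -0.083, Spint2 at -0.00077, Prss8 at -0.13 and Serpinc1 at -0.026. Hpn was at 0.66 in that fit (edgeR adjusted p = 0.627), Prss22 at 0.76 and Tmprss13 at -0.34. Without both DOX_neg 4 and DOX_pos 5 Tmprss2 was at -0.063 and Tmprss11e at -0.054. Leaving out 1 tumour gave -0.027 to 0.053 for St14, -0.034 to 0.059 for Spint2, -0.075 to 0.34 for Tmprss2, -0.16 to 0.070 for Tmprss4, -0.24 to 0.019 for Prss41 and 0.11 to 1.19 for Tmprss11e. F2rl1 passed with voom alone, at 0.98. Over all genes DESeq2 called 322, limma voom with sample weights 775 and the replicate block 7, against 0, and leaving out 1 tumour gave 0 to 37 (37 without DOX_neg 3, 2 without DOX_pos 2). Unadjusted p under 0.05 was reached by 4394 genes with voom, 1168 with the epithelial covariate, 1384 without DOX_neg 4 and DOX_pos 5, and 1730 to 3462 with 1 tumour left out, against 2592. Of these 1326 were higher with doxycycline, and with library size alone 1565 of 2309 were. The causes were not tested. The Hpn difference in log2(CPM + 1) was 0.38 to 0.60 with 1 tumour left out (exact permutation p of 0.0159 to 0.0317). Counted from the absolute difference, these exact permutation p-values were 0.0159 to 0.0476, the largest without DOX_neg 4 and without DOX_pos 2. The difference was 0.42 without both DOX_neg 4 and DOX_pos 5 (exact p = 0.0571). As a replicate block of 5 same-numbered pairs it was 0.52, with an exact p of 0.0625, the smallest that 5 pairs allow. The labels do not pair the tumours by number, and the correlation of same-numbered deviations was 0.07 to 0.26. Low counts limit Tmprss4 (12 to 51) and Prss22 (14 to 72).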
